A study of Mus musculus with 26 samples.

Results

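miR-124 was followed through 26 small RNA libraries of the hippocampal CA1 field of the mouse. Its members are the 2 mature arms of the miR-124 hairpin, miR-124-3p (mmu-miR-124-3p) and miR-124-5p (mmu-miR-124-5p), which were chosen by name among 1915 mature miRNA entries. The libraries fell into 3 groups. The first was 10 libraries of transgenic mice given Vorinostat, an inhibitor of histone deacetylases, in drinking water. The second was 7 libraries of transgenic mice given vehicle, and the third 9 libraries of wild type littermates given vehicle. The transgene is named only as CamkdeltaC in the design, a form of a calcium/calmodulin-dependent kinase, and the title of the series ties the mice to heart failure and impaired memory. The sources used here do not give the promoter that drives it or the sex of each animal. In all 3 groups dosing began at 2 months of age and lasted 4 weeks, so that the mice were 3 months old when CA1 was dissected, and both sexes were used.

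miR-124 is one of the miRNAs that mark the neuronal lineage. It is transcribed from several genes with the same mature product, is silenced outside neurons by the repressor REST, and in neurons lowers transcripts of non-neuronal programmes such as that of the splicing regulator Ptbp1. The 3p arm is the one loaded into Argonaute in most molecules and carries the seed by which targets are recognised. The 5p arm is the passenger strand of the hairpin and is found at lower levels.

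3 hairpin genes give these arms in GENCODE's gene models for GRCm38 (mm10). Mir124a-1 lies on chromosome 14 from 64590657 to 64590741 on the plus strand, inside an exon of the long noncoding host gene Mir124a-1hg (64587331 to 64593961). Mir124a-2 lies on chromosome 3 from 17795662 to 17795770 on the plus strand, within the long noncoding gene Mir124-2hg (17789921 to 17808970), where 1 exon overlaps it in part and 0 contain it. Mir124a-3 lies on chromosome 2 from 180894040 to 180894107 on the plus strand, and its last 3 bases overlap the start of the long noncoding gene Gm27032 (180894105 to 180895220). Reads of a mature arm are the same whichever gene made it, so the values below cannot be assigned to a locus.

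The counts of miR-124 were mostly multiples of the number of its hairpin genes. The count of miR-124-5p was a multiple of 3 in 25 of 26 libraries, the exception being transgenic vehicle replicate 3, and that of miR-124-3p in 18 of 26 (69.2%). Among 322 miRNAs of a single hairpin gene with a mean count of at least 50, the median miRNA had a multiple of 3 in 34.6% of libraries, and 0 reached 18 libraries. A like pattern was seen for miRNAs of 2 hairpin genes, of which 5 of 26 had even counts in all 26 libraries, against 0 of the 322 single-hairpin miRNAs. The sources used here do not say how reads with several loci were counted, and whether a read was counted once at each locus was not tested. The level and rank of miR-124 against other miRNAs are therefore uncertain by up to 3 times. A comparison of libraries is free of this only if reads were counted alike in each, which was not tested. Libraries where miR-124-3p was no multiple of 3 were Vorinostat replicates 2, 5 and 6, transgenic vehicle replicates 2, 3, 5 and 8, and wild type vehicle replicate 4.

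Levels are given in CPM, counts for every 1e6 counts of a library's total after scaling with trimmed-mean (TMM) factors. miRNA reads are not scaled by length, and ligation favours some sequences, so a rank is one of reads and not of molecules. Over all 26 libraries miR-124-3p averaged 6729 ± 2654 CPM (SD) and took 0.693 ± 0.311% of counts. It ranked 20th of the 605 miRNAs that passed a filter on low counts, or 43rd if its counts were divided by 3 (2243 CPM). miR-124-5p averaged 136 ± 49.7 CPM and ranked 160th, or 221st with counts divided by 3 (45.4 CPM). Only the counts of miR-124 were divided. Other miRNAs of several hairpin genes were left as counted, so the ranks after division set divided counts against undivided ones. Both arms passed the filter. The miRNAs with the most reads were miR-128-3p, which is enriched in neurons (229308 ± 48954 CPM), miR-9-5p, which acts in neural progenitors and neurons (126121 ± 23107 CPM), miR-99a-5p (71891 ± 16448 CPM), miR-26a-5p (60473 ± 14780 CPM) and miR-127-3p of the imprinted Dlk1-Dio3 region (52216 ± 39538 CPM).

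Total counts, in mega-counts (M), ran from 3.89 to 15.7 M in transgenic Vorinostat, from 6.01 to 24.8 M in transgenic vehicle and from 0.585 to 17.6 M in wild type vehicle libraries. Wild type vehicle replicate 1 (0.585 M) and Vorinostat replicate 8 (3.89 M) were the shallowest and held the lowest levels of both arms in their groups. In wild type vehicle replicate 1, miR-124-3p ranked 59th with a count of 579, and miR-124-5p rested on a count of 6. Whether every library came from its own animal is not stated, so the p-values below measure only how libraries spread, which may be technical. Column names put 13 libraries on lane L001 and 13 on lane L002, with 4 and 6 of transgenic Vorinostat, 3 and 4 of transgenic vehicle and 6 and 3 of wild type vehicle.

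All 38 listed neuron-enriched miRNAs had reads in every one of the 26 libraries. They summed to 515801 to 562220 CPM in transgenic Vorinostat, 497800 to 537516 CPM in transgenic vehicle and 482641 to 539182 CPM in wild type vehicle. All list sums here are counts for every 1e6 of a library's total, without TMM factors. Wild type vehicle replicate 1 stood apart in some of the lists and not in others. Its 6 listed microglia and leukocyte miRNAs summed to 68.4 CPM, with miR-142a-3p, miR-155-5p and miR-223-3p at 0, where the group's median was 469 CPM. Its 3 listed sensory and thalamic miRNAs summed to 1092 CPM, with none at 0, against a group median of 122 CPM. Its 5 erythrocyte miRNAs summed to 2946 CPM, with miR-144-3p and miR-144-5p at 0, against a group median of 1135 CPM. Its 12 miRNAs regulated by REST summed to 55242 CPM and its 7 astrocyte miRNAs to 38533 CPM, with none at 0, against group medians of 171320 and 89515 CPM. Its 10 choroid plexus and ependyma miRNAs summed to 330 CPM, with miR-200c-3p, miR-141-3p and miR-449a-5p at 0, against a group median of 680 CPM. Its 6 oligodendrocyte miRNAs, at 1357 CPM with miR-219a-5p and miR-219b-5p at 0, and its 5 endothelium and vessel miRNAs, at 7445 CPM with none at 0, lay near the group medians of 1317 and 7824 CPM. Their part in the low miR-124 of that library was not tested.

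miR-124-3p varied widely within every group. In transgenic Vorinostat libraries its level was 3211 CPM at the lowest, 6406 CPM at the median and 10353 CPM at the highest. In transgenic vehicle libraries it was 5150, 6829 and 11702 CPM, and in wild type vehicle libraries 1205, 7056 and 11279 CPM, each as lowest, median and highest. The 3 groups overlapped over most of their range. The group means were 6172 ± 2059 CPM in transgenic Vorinostat (SD, n = 10), 7747 ± 2703 CPM in transgenic vehicle (n = 7) and 6557 ± 3231 CPM in wild type vehicle (n = 9). Without wild type vehicle replicate 1 the last mean was 7226 ± 2707 CPM (SD, n = 8).

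miR-124-5p likewise had its highest mean in transgenic vehicle, at a level far below that of the 3p arm. Its lowest, median and highest level were 63.9, 141 and 202 CPM in transgenic Vorinostat, 110, 178 and 226 CPM in transgenic vehicle and 12.5, 109 and 176 CPM in wild type vehicle. The groups overlapped here as well. The means were 132 ± 49.5 CPM in transgenic Vorinostat (SD, n = 10), 167 ± 41.8 CPM in transgenic vehicle (n = 7) and 116 ± 48.6 CPM in wild type vehicle (n = 9). Among the Vorinostat libraries the 4 on lane L001 held 178 ± 28.4 CPM and the 6 on L002 held 102 ± 33.5 CPM (SD). These values do not tell fewer neurons from less miR-124 per neuron, which bulk tissue cannot tell apart.

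**Figure D1:**
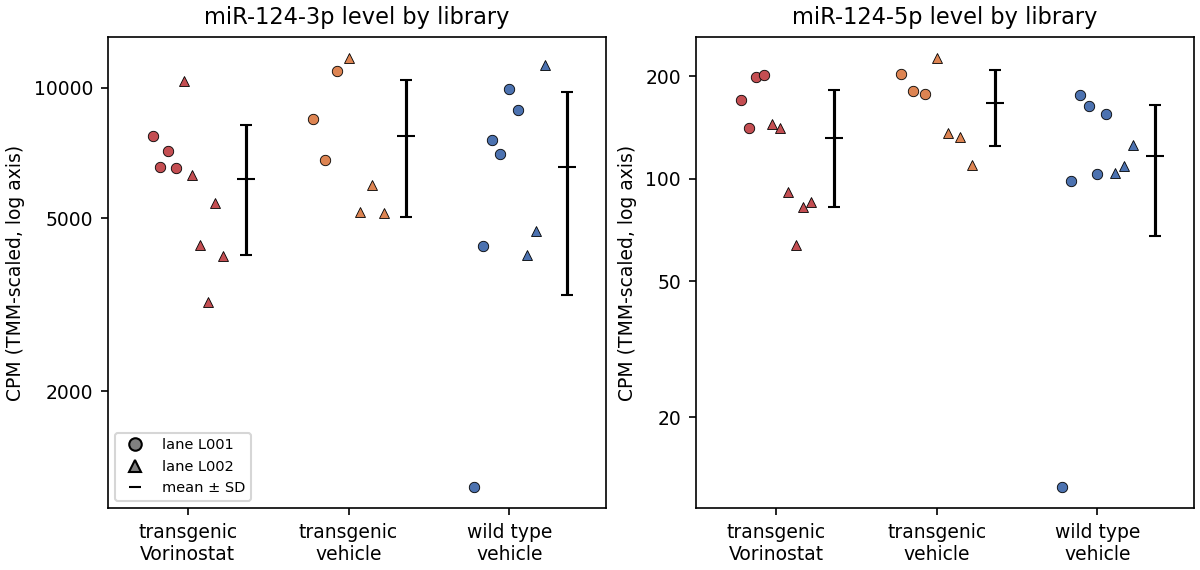
Level of miR-124-3p (left) and miR-124-5p (right) in each library, in TMM-scaled CPM on a log axis, by group. Circles are libraries of lane L001 and triangles of lane L002, and bars give mean ± SD; the 3 groups overlap, and wild type vehicle replicate 1 lies lowest in both panels, at 1205 and 12.5 CPM.

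The first comparison asked whether the transgene went with another level of miR-124 among vehicle-treated mice. Neither arm passed the test on counts. miR-124-3p had a log2 difference of 0.24 (SE 0.31, 95% interval -0.39 to 0.87), transgenic vehicle over wild type vehicle, with an edgeR adjusted p of 0.98. miR-124-5p had one of 0.50 (SE 0.30, 95% interval -0.12 to 1.13), with an edgeR adjusted p of 0.98 and the 31st smallest p of the 605 tested miRNAs. Of all 605 miRNAs 0% passed in edgeR, with 13 at an unadjusted p under 0.05. DESeq2 and limma voom also passed 0, with 18 and 7 unadjusted, and the median log2 difference over all tested miRNAs was 0.03. The intervals leave room for a rise of up to 0.87 and 1.13 on the log2 scale and for a fall of up to 0.39 and 0.12, so that equal levels were not shown.

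The transgenic excess was smaller without the library that stood apart. Leaving out wild type vehicle replicate 1 gave 0.07 for miR-124-3p and 0.34 for miR-124-5p, and leaving out Vorinostat replicate 8 as well gave the same rounded values. Within lane L001, which holds wild type vehicle replicate 1, the log2 differences were 0.41 and 0.63 for the 3p and 5p arms, and within L002 they were 0.05 and 0.41.

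The second comparison asked what Vorinostat did to miR-124 in transgenic mice. Both arms had lower means with Vorinostat and neither passed the test. The log2 difference, transgenic Vorinostat over transgenic vehicle, was -0.33 for miR-124-3p (SE 0.30, 95% interval -0.94 to 0.29) and -0.33 for miR-124-5p (SE 0.30, 95% interval -0.94 to 0.27), each with an edgeR adjusted p of 0.836. Again 0% of 605 miRNAs passed in edgeR (21 unadjusted), and 0 passed in DESeq2 (26 unadjusted) and limma voom (16 unadjusted). The median over all tested miRNAs was -0.01. For miR-124-3p the log2 difference was -0.35 within lane L001 and -0.32 within L002, and for miR-124-5p -0.11 and -0.58. Without the pair of shallow libraries the values were -0.26 and -0.27.

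The 7 replicate numbers that both transgenic groups share were used for a second look. Same-numbered libraries deviated together in all 7 pairs, but 6 of these pairs share a lane. Whether the number or the lane made them alike was not tested, so the pairing is an assumption. miR-124-3p was lower with Vorinostat in 6 of 7 pairs. Its largest gap was in pair 6, with 6280 CPM with Vorinostat against 11702 CPM with vehicle, and its only opposite pair was number 3, with 7135 CPM against 6829 CPM. miR-124-5p was lower in the same 6 pairs, from 63.9 CPM with Vorinostat against 136 CPM with vehicle in pair 8 to 145 CPM against 178 CPM in pair 5. In pair 3 it stood at 199 CPM with Vorinostat against 181 CPM with vehicle. How many of all tested miRNAs were lower in as many pairs was not counted. These pair counts therefore cannot be called particular to miR-124. The difference within pairs averaged -0.35 ± 0.34 for miR-124-3p and -0.50 ± 0.38 for miR-124-5p (SD over 7 pairs, log2 CPM). In the authors' normalized values described below, both arms were lower with Vorinostat in 7 of 7 pairs. For miR-124-3p the 2 groups do not overlap there, so any pairing would give this count and it adds nothing. On those values 36.9% of all 674 miRNAs passed downward with Vorinostat.

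With the pair as a block in edgeR, a fit chosen after seeing the data, the log2 difference was -0.35 for miR-124-3p (SE 0.13, adjusted p = 0.111) and -0.50 for miR-124-5p (SE 0.15, adjusted p = 0.0647). Neither arm passed. The same 14 libraries without a pair term, a fit also added after seeing the data, gave -0.33 for miR-124-3p (SE 0.25) and -0.45 for miR-124-5p (SE 0.23), each with an edgeR adjusted p of 0.642. With the pair term 0.882% of 567 tested miRNAs passed (5 miRNAs) and 147 had an unadjusted p under 0.05, and without it 0% of the same 567 passed and 31 had an unadjusted p under 0.05. The 3p arm had the 84th and the 5p arm the 45th smallest p, so that many other miRNAs had a smaller p within pairs.

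The last comparison asked how far Vorinostat-treated transgenic mice stood from wild type vehicle. The log2 difference was -0.09 for miR-124-3p (SE 0.28, 95% interval -0.66 to 0.49) and 0.17 for miR-124-5p (SE 0.28, 95% interval -0.40 to 0.74), each with an edgeR adjusted p of 0.9997. Of the 605 miRNAs 0% passed in edgeR (19 unadjusted), the median was 0.01, and the counts were 0 and 0 in DESeq2 and limma voom, with 29 and 23 unadjusted. The direction of both arms was not stable. Without wild type vehicle replicate 1 alone the values were -0.27 for miR-124-3p and -0.00564 for miR-124-5p, so the direction of the 5p arm turned. Without the pair of shallow libraries it was -0.19 and 0.08, within lane L001 0.05 and 0.51, and within L002 -0.27 and -0.17.

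miR-124 looks different in the normalized log2 values that the authors deposited for 674 miRNAs. The sources used here do not give how these values were made. In that table miR-124-3p stood at 12.6 to 13.7 in transgenic Vorinostat (13.16 ± 0.38, SD, n = 10), at 14.1 to 14.8 in transgenic vehicle (14.50 ± 0.28, n = 7) and at 11.1 to 13.9 in wild type vehicle (13.20 ± 0.87, n = 9). The transgenic vehicle libraries thus lay above every library of both other groups, with no overlap. miR-124-5p stood at 8.64 to 10.3 (9.51 ± 0.51), 10.1 to 11.2 (10.60 ± 0.36) and 7.16 to 10.7 (9.55 ± 0.97) in the same order of groups, with overlap.

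In limma on these values both arms passed in the comparisons that involve transgenic vehicle. Transgenic vehicle over wild type vehicle gave 1.30 for miR-124-3p (SE 0.28, limma adjusted p = 0.00227) and 1.05 for miR-124-5p (SE 0.32, limma adjusted p = 0.0104). Transgenic Vorinostat over transgenic vehicle gave -1.33 (SE 0.27, limma adjusted p = 0.00230) and -1.09 (SE 0.32, limma adjusted p = 0.00683). Transgenic Vorinostat over wild type vehicle gave -0.04 for each arm (SE 0.26 and 0.30, limma adjusted p = 0.990 and 0.991). The same 7 transgenic vehicle libraries enter the first and second of these differences with opposite signs, so the pair of values is no independent evidence of a return to the wild type level.

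These calls were not particular to miR-124. Of the 674 miRNAs in the table, 54.3% passed for transgenic vehicle over wild type vehicle, 34% upward and 20.3% downward. For transgenic Vorinostat over transgenic vehicle 53.4% passed, 16.5% upward and 36.9% downward, and for transgenic Vorinostat over wild type vehicle 0.89% passed. By size miR-124-3p came 45th and miR-124-5p 80th among upward differences of transgenic vehicle over wild type vehicle, and 48th and 76th among downward differences with Vorinostat. Groups that do not overlap, with transgenic vehicle higher, were found for 5.04% of miRNAs against wild type vehicle and for 9.94% against transgenic Vorinostat, and with transgenic vehicle lower for 2.52% and 3.71%. On log2 CPM from the counts such separation was found for 0% in each of these comparisons.

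The calls on the authors' values held without the shallow libraries (wild type vehicle replicate 1 and Vorinostat replicate 8), where miR-124-3p gave 1.04 (limma adjusted p = 2.03e-04) and -1.27 (limma adjusted p = 7.23e-06), and miR-124-5p 0.75 (limma adjusted p = 0.00307) and -0.99 (limma adjusted p = 1.33e-04). Over all 674 miRNAs 51.3% and 57.6% passed in these fits. Within lanes they held in part. In L002, miR-124-3p gave 0.99 (limma adjusted p = 0.0188) and -1.32 (limma adjusted p = 9.35e-04), and miR-124-5p 0.80 (limma adjusted p = 0.0507) and -1.11 (limma adjusted p = 0.00240), where 22.3% and 49.7% of all 674 passed. In L001, with 3 transgenic vehicle libraries, the sizes were 1.48 and -1.35 for miR-124-3p and 1.33 and -1.03 for miR-124-5p, and neither arm passed (limma adjusted p from 0.136 to 0.335). There 0% of the 674 passed in either comparison, with 220 and 101 at an unadjusted p under 0.05, so that nothing particular to miR-124 can be read from it.

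**Figure D2:**
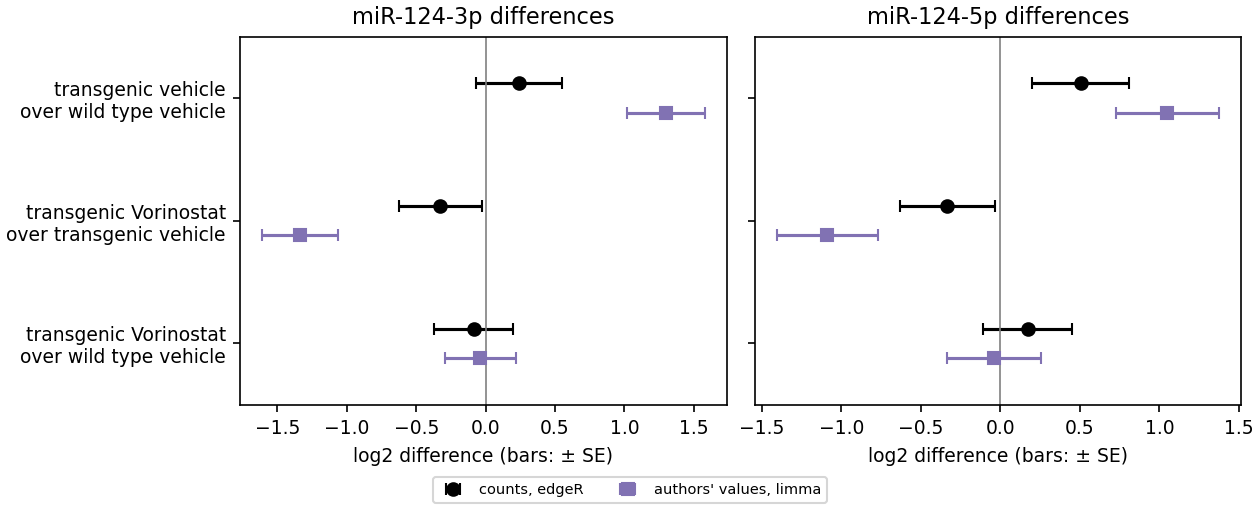
Log2 difference of miR-124-3p (left) and miR-124-5p (right) in the 3 comparisons, with bars of ± SE, from counts in edgeR (circles) and from the authors' normalized values in limma (squares). The estimates from counts lie between -0.33 and 0.50, and those from the authors' values reach 1.30 and -1.33 wherever transgenic vehicle is compared.

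The gap between the tables varied with the group. The authors' value of miR-124-3p exceeded its log2 CPM by 0.64 ± 0.45 in transgenic Vorinostat (SD, n = 10), by 1.65 ± 0.51 in transgenic vehicle (n = 7) and by 0.75 ± 0.37 in wild type vehicle (n = 9). For miR-124-5p the excess was 2.56 ± 0.51, 3.26 ± 0.43 and 2.94 ± 0.33 in the same order. Between transgenic vehicle and wild type vehicle the excess of miR-124-3p thus shifted by 0.90, where the median over 605 miRNAs present in both tables was 0.03 and 23 miRNAs shifted further upward. Between transgenic Vorinostat and transgenic vehicle it shifted by -1.01, where the median was -0.21 and 31 miRNAs shifted further downward. For miR-124-5p the shifts were 0.32 and -0.70. What in the making of the values moved with the groups was not tested.

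**Figure D3:**
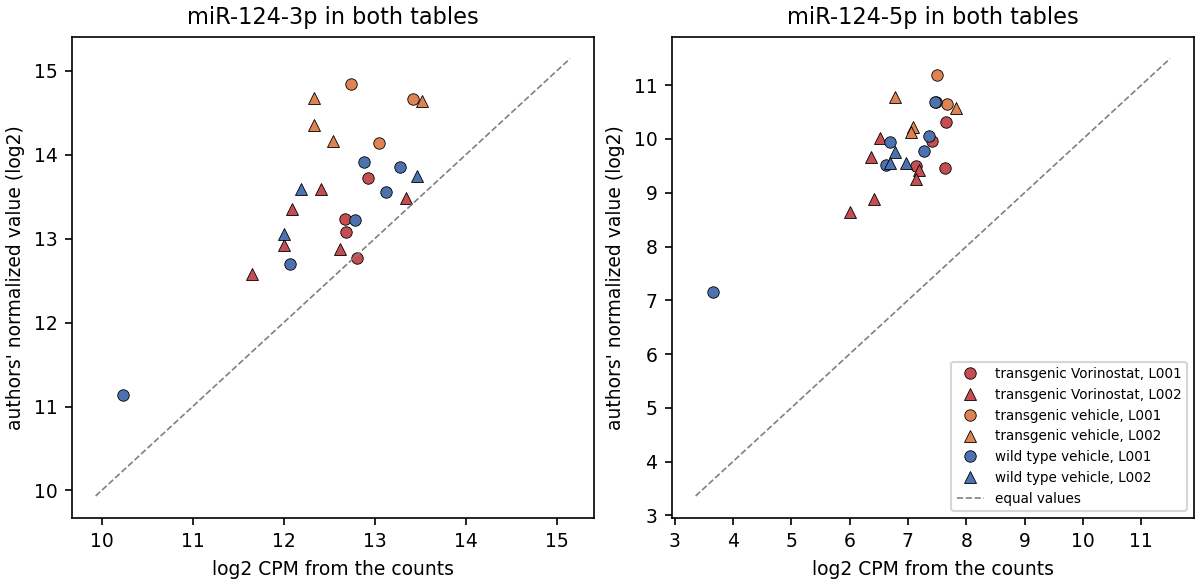
Authors' normalized log2 value against log2 CPM from the counts for miR-124-3p (left) and miR-124-5p (right), with 1 point per library and the dashed line at equal values. The 7 transgenic vehicle libraries lie farthest above the line for miR-124-3p as a group, by 1.65 on average, against 0.64 in transgenic Vorinostat and 0.75 in wild type vehicle.

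The authors' deposited table of co-expression modules placed both arms in the turquoise module, which holds 404 of the 674 miRNAs. In the authors' deposited table the membership of miR-124-3p in it was 0.971 (35th of the module) and that of miR-124-5p 0.975 (31st). Membership in the blue module was -0.954 and -0.888 in the authors' deposited table. The modules were built on these libraries, so membership is a description of them.

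The balance of both arms within a library needs no scaling factor, though over all 26 libraries it went with the library total, as given below. The passenger arm miR-124-5p made up 2.03 ± 0.51% of the counts of both arms over the 26 libraries, from 1.03 to 3.00%. It made up 2.11 ± 0.48% in transgenic Vorinostat (1.38 to 3.00%, n = 10), 2.18 ± 0.36% in transgenic vehicle (1.60 to 2.59%, n = 7) and 1.82 ± 0.61% in wild type vehicle (1.03 to 2.46%, n = 9). The groups overlapped, and the 3 lowest wild type vehicle libraries lay below every transgenic one. Among these was wild type vehicle replicate 1, with a miR-124-5p count of 6.

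The log2 ratio of 5p to 3p counts differed by 0.32 for transgenic vehicle over wild type vehicle (two-sided exact permutation p = 0.176, adjusted over 3 comparisons 0.345). It differed by -0.06 for transgenic Vorinostat over transgenic vehicle (exact permutation p = 0.685, adjusted 0.685) and by 0.26 for transgenic Vorinostat over wild type vehicle (exact permutation p = 0.230, adjusted 0.345). None passed after adjustment. Between same-numbered libraries the ratio was higher in transgenic vehicle than in wild type vehicle in 6 of 6 pairs (mean 0.37 ± 0.37, exact sign-flip p = 0.0312, adjusted over 3 comparisons 0.0938). It was higher in transgenic Vorinostat than in transgenic vehicle in 2 of 7 pairs (mean -0.15 ± 0.26, exact sign-flip p = 0.219, adjusted 0.219), and higher than in wild type vehicle in 6 of 9 (mean 0.26 ± 0.39, exact sign-flip p = 0.0820, adjusted 0.123). The numbers of wild type libraries were not taken to pair them with transgenic ones. Deviations of such pairs correlated with r from -0.451 to 0.458 over the 6 pairs and from -0.512 to 0.580 over the 9. The sign-flip p-values of these 6 and 9 pairs therefore cannot decide whether the ratio differed.

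The ratio of miR-124 spread less over libraries than that of the median hairpin. Among 72 hairpins with both arms at 10 CPM or more, the SD of the log2 ratio over 26 libraries was 0.41 for miR-124, against a median of 0.64. Over the 24 libraries without the shallow libraries (wild type vehicle replicate 1 and Vorinostat replicate 8) it was 0.39, against a median of 0.49 and a range from 0.20 to 1.67. The mean log2 ratio of -5.64 was the 13th largest in size of the 72.

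**Figure D4:**
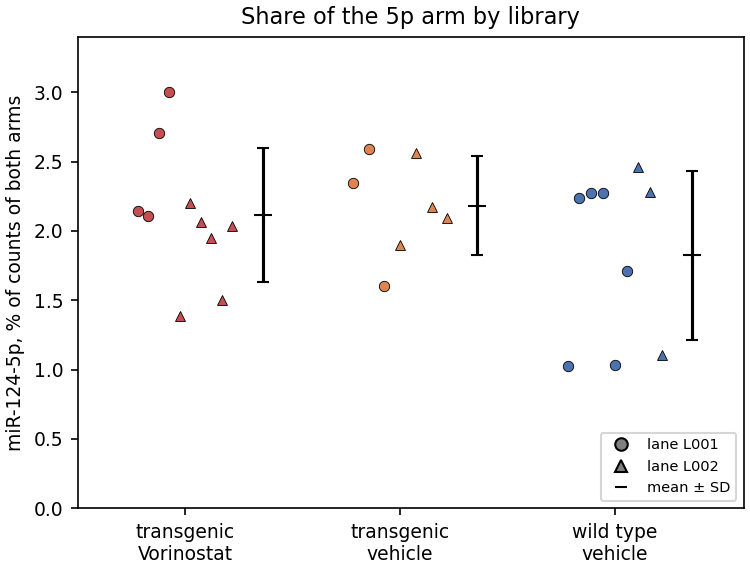
Share of miR-124-5p in the counts of both arms of miR-124, in percent, by library and group, with circles for lane L001, triangles for lane L002 and bars of mean ± SD. The share lies between 1.03 and 3.00% in every library, and the groups overlap.

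Across the 26 libraries both arms varied together. Pearson's r between their log2 CPM was 0.856 (permutation p = 1e-05, the smallest that 100000 permutations can give, adjusted over 4 relations 4e-05) and Spearman's rho was 0.714 (permutation p = 7e-05, adjusted 2.8e-04). Without the libraries farthest from the median, Vorinostat replicate 8 and wild type vehicle replicate 1, r was 0.632 (permutation p = 0.00111, n = 24). Within lanes r was 0.901 (L001) and 0.801 (L002). Relations of either arm and of the arm ratio with the library total rested on those shallow libraries. For the log2 ratio of 5p to 3p counts r was 0.434 (permutation p = 0.0318, adjusted 0.0318) and rho 0.357 (permutation p = 0.0757). Without the shallow libraries r of the ratio was 0.200 (permutation p = 0.347). For miR-124-3p r was 0.653 (permutation p = 0.00633, adjusted 0.00844; rho 0.251, permutation p = 0.214) and -0.0364 without them. For miR-124-5p r was 0.798 (permutation p = 0.00127, adjusted 0.00254; rho 0.331, permutation p = 0.0997) and 0.143 without them.

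miR-124-3p was nonetheless more like many other miRNAs than like its own passenger arm. Likeness was measured as Pearson's r of deviations from the group mean in log2 CPM, over 26 libraries and 339 miRNAs of at least 10 CPM, and is a description, since all values share library and scaling. The most alike were miR-125b-5p (r = 0.98), miR-26b-5p (0.98), miR-195a-5p (0.96), miR-29a-3p (0.96) and miR-29c-3p (0.96). miR-125b is abundant in neurons and glia, and miR-29 in mature neurons and astrocytes. The most opposed were miR-127-3p (r = -0.98), miR-99b-3p (-0.96) and miR-1964-3p (-0.95). miR-124-5p came only 69th, with r = 0.85.

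The likeness of the named miRNAs stayed high without the shallow libraries, but the order of the list changed. Over the other 24 libraries r was 0.96 for miR-125b-5p, 0.95 for miR-26b-5p, 0.92 for miR-195a-5p, 0.93 for miR-29a-3p, 0.92 for miR-29c-3p and -0.96 for miR-127-3p, while miR-124-5p had 0.63 and came 97th. In these 24 libraries miR-361-5p came 1st (r = 0.96), miR-384-5p 4th and let-7d-5p 5th. miR-29a-3p, miR-195a-5p and miR-29c-3p fell to 7th, 8th and 9th. miR-99b-3p had r = -0.92 and miR-1964-3p -0.89, and miR-532-5p (-0.95) and miR-434-5p (-0.94) were more opposed than these. An absolute r above 0.8 was common, with 159 of 339 miRNAs over 26 libraries and 108 over 24. In the authors' normalized values the deviations of miR-125b-5p (r = 0.99) and miR-127-3p (-0.97) stood in the same relation to miR-124-3p over 26 libraries. Over 24 libraries these were 0.97 and -0.91.

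In levels, miR-127-3p ran opposite to miR-124-3p in every group. It averaged 54490 ± 23632 CPM in transgenic Vorinostat (29324 to 107285), 38697 ± 12427 CPM in transgenic vehicle (23340 to 51486) and 60204 ± 62473 CPM in wild type vehicle (22996 to 222292). Its highest value, 222292 CPM, was in wild type vehicle replicate 1, where miR-124-3p was lowest, and the next, 107285 CPM, in Vorinostat replicate 8, where miR-124-3p stood at 3211 CPM. miR-125b-5p averaged 16157 ± 4723 CPM in transgenic Vorinostat, 20283 ± 5407 CPM in transgenic vehicle and 17823 ± 7358 CPM in wild type vehicle, and was lowest in wild type vehicle replicate 1 at 3745 CPM.

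**Figure D5:**
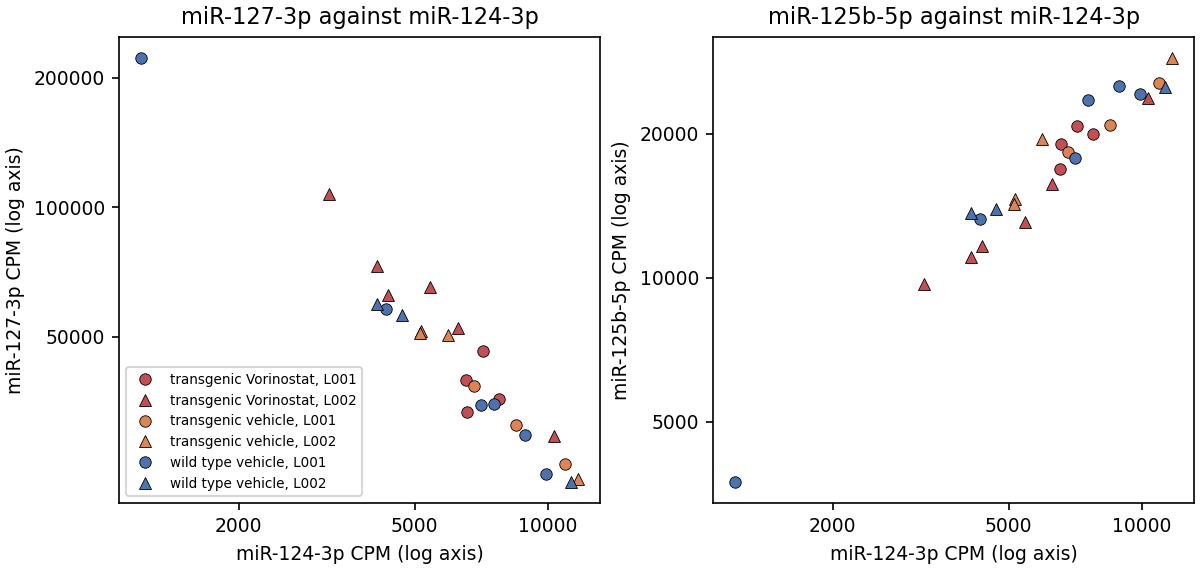
Level of miR-127-3p (left) and miR-125b-5p (right) against that of miR-124-3p, in CPM on log axes, with 1 point per library coloured by group and shaped by lane. In the library with the least miR-124-3p (1205 CPM), miR-127-3p is highest at 222292 CPM and miR-125b-5p lowest at 3745 CPM, and all groups lie along the same line.

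The passenger arm kept other company. miR-124-5p was most like miR-340-5p (r = 0.98), miR-93-5p (0.98) and miR-19b-3p (0.97), both of the miR-17 family clusters, miR-30e-5p (0.97) and miR-409-5p of the Dlk1-Dio3 region (0.96). Over 24 libraries these were 0.92, 0.91, 0.89, 0.91 and 0.87, and miR-103-3p (0.93) and miR-30b-5p (0.92) were the most alike. An absolute r above 0.8 was found for 148 of 339 miRNAs over 26 libraries and for 61 over 24. miR-124-3p came 78th in likeness to miR-124-5p over 26 libraries and 89th over 24.

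Other neuronal miRNAs were read beside miR-124. In edgeR 0 of 38 neuron-enriched miRNAs passed in any comparison, beside 0% of all tested miRNAs. Their median log2 difference was 0.07 for transgenic vehicle over wild type vehicle (26 higher), 0.03 for transgenic Vorinostat over transgenic vehicle (20 higher) and 0.07 for transgenic Vorinostat over wild type vehicle (24 higher). Without wild type vehicle replicate 1, an alternative added for all lists after seeing the data, the first and last of these medians were -0.03 (15 higher) and -0.01 (18 higher). miR-128-3p averaged 260218 ± 52101 CPM in transgenic Vorinostat, 210514 ± 34053 CPM in transgenic vehicle and 209580 ± 40302 CPM in wild type vehicle. miR-9-5p averaged 129907 ± 23372, 133095 ± 6156 and 116489 ± 29338 CPM in the same order. Its means, unlike those of miR-128-3p, thus had the same order as those of miR-124-5p, but not as those of miR-124-3p. miR-9-5p passed in no comparison on counts, so nothing is read from this order.

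Among 12 other miRNAs listed as regulated by REST, which also silences the miR-124 genes, 0 passed in any comparison on counts. Their median log2 difference was 0.19 for transgenic vehicle over wild type vehicle (10 of 12 higher), -0.11 for transgenic Vorinostat over transgenic vehicle (8 of 12 lower) and 0.05 for transgenic Vorinostat over wild type vehicle (7 of 12 higher), beside medians of 0.03, -0.01 and 0.01 over all 605. Without wild type vehicle replicate 1 the first and last were 0.04 (7 of 12 higher) and -0.07 (3 of 12 higher), beside -0.01 and -0.01 over all miRNAs tested. miR-218-5p, expressed in motor and forebrain neurons, averaged 35721 ± 6009, 34405 ± 5431 and 33714 ± 10358 CPM in transgenic Vorinostat, transgenic vehicle and wild type vehicle. The list shares miR-29a-3p and miR-29b-3p with the astrocyte list, and miR-29a-3p is among the miRNAs most like miR-124-3p.

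On the authors' normalized values 8 of these 12 miRNAs passed upward and 0 downward in limma for transgenic vehicle over wild type vehicle (median 0.74), and 0 upward and 9 downward for transgenic Vorinostat over transgenic vehicle (median -0.67). Of the 38 neuron-enriched miRNAs 17 passed upward and 6 downward for transgenic vehicle over wild type vehicle (median 0.29), and 5 upward and 17 downward for transgenic Vorinostat over transgenic vehicle (median -0.36). In neither list did a miRNA pass for transgenic Vorinostat over wild type vehicle. The backgrounds for these counts are the 34% upward and 20.3% downward, and the 16.5% upward and 36.9% downward, given above. Other cell type lists also held miRNAs that passed on these values, as given below.

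The remaining cell type lists held 0 miRNAs that passed in edgeR in any comparison. For transgenic vehicle over wild type vehicle the median log2 difference was 0.29 for 5 oligodendrocyte, 0.25 for 7 astrocyte, 0.09 for 5 microglia and leukocyte, -0.08 for 5 erythrocyte, 0.23 for 5 endothelium and vessel, 0.26 for 8 choroid plexus and ependyma and -1.29 for 3 sensory and thalamic miRNAs. Wild type vehicle replicate 1 held 1092 CPM of the last list, scaled to its total without TMM factors. Without that library the median of the last list was -0.38. Those for microglia and leukocyte and for erythrocyte miRNAs turned to -0.08 and 0.07, and the others ran from 0.17 to 0.21. For transgenic Vorinostat over transgenic vehicle the median was -0.09, 0.02, -0.04, 0.18, -0.08, 0.05 and 1.10 in the same order. The oligodendrocyte miR-219a-2-3p averaged 968 ± 214 CPM in transgenic vehicle and 908 ± 328 CPM in wild type vehicle. On the authors' values 34% of all 674 miRNAs passed upward and 20.3% downward in limma for transgenic vehicle over wild type vehicle. Beside these shares, 3 of 5 oligodendrocyte miRNAs passed upward and 1 downward (median 0.95). The counts upward and downward were 3 and 2 of 7 astrocyte and 2 and 0 of 5 microglia and leukocyte miRNAs. They were 0 and 0 of 5 erythrocyte and 2 and 1 of 5 endothelium and vessel miRNAs. They were 4 and 0 of 9 choroid plexus and ependyma and 0 and 2 of 3 sensory and thalamic miRNAs. For transgenic Vorinostat over transgenic vehicle 16.5% of all 674 passed upward and 36.9% downward. Beside these shares, 0 of 5 oligodendrocyte miRNAs passed upward and 3 downward (median -0.93). Astrocyte, microglia and leukocyte, and erythrocyte miRNAs gave 2 and 3, 0 and 2, and 0 and 1. Endothelium and vessel, choroid plexus and ependyma, and sensory and thalamic miRNAs gave 1 and 2, 0 and 2, and 2 and 0. No list was tested against the shares over all miRNAs. The part of these cells in the levels of miR-124 was not tested.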

How the data were processed

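Small RNA of mouse CA1 was sequenced from TruSeq Small RNA libraries, per the labels' protocols. FastQC 0.11.5 and mm10 are named in the submitters' processing notes, and the sources used here do not give the aligner or counter. The authors deposited counts of mature miRNAs, normalized values on a log2 scale and module membership scores.

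Counts were tested by edgeR 4.0.16 in R 4.3.3 (quasi-likelihood test, TMM, filterByExpr with a minimum count of 10 and total of 15), in 1 fit of all 26 libraries. Two-sided p-values were Benjamini-Hochberg adjusted over all 605 tested miRNAs, with a threshold of 0.05. Log2 CPM used a prior count of 2. The authors' log2 values were tested with limma 3.58.1 over 674 miRNAs. DESeq2 1.42.0, limma voom, other scaling, filters, lanes and left-out libraries were alternatives. Arm ratios, with 0.5 added to each count, were compared by exact permutation tests. The scripts were tested on simulated data. Total counts ran from 0.585 to 24.8 M (mega-counts) per library, and a count of 6 for miR-124-5p limited the shallowest.

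Same-numbered transgenic libraries deviated together (r from 0.265 to 0.599 in 7 of 7 pairs, 6 on the same lane). The numbers were taken to pair them, which is an assumption, since number and lane were not separated. Pairs with wild type vehicle did so only in part. Their r was over 0.1 in 4 of 6 and 6 of 9 pairs, and reached 0.458 and 0.580.

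The members and lists were chosen with earlier results of these data known. Named miRNAs were both arms, the 5 most alike and 3 most opposed to miR-124-3p and the 5 most alike to miR-124-5p. miRNAs that took such places over 24 libraries were named as well. The 5 most abundant and the 2 most abundant of each list that bears on a result were also named.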

Additional observations from a re-analysis of the deposited data

Results flagged for a closer look

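Of 15 groups of values examined 3 were flagged, all for wild type vehicle replicate 1, which lay far below the other 8 libraries of its group. Chance marks about 1 in 20 groups, but these 3 are related values of that library, so the shares cannot be compared. In the authors' normalized log2 values its miR-124-3p was 11.1, and the nearest library of the group stood at 12.7. Its miR-124-5p level was 12.5 CPM, from a count of 6, and the nearest was 98.6 CPM. In the authors' normalized log2 values its miR-124-5p was 7.16, and the nearest was 9.51. It was also the shallowest library, with 0.585 M (mega-counts). Without it, transgenic vehicle over wild type vehicle gave a log2 difference in edgeR of 0.07 for miR-124-3p and 0.34 for miR-124-5p, and transgenic Vorinostat over wild type vehicle gave -0.27 and -0.00564.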

How the results depend on the processing

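Differences between transgenic vehicle and both other groups kept their direction for both arms under every setting run on counts, and none passed. With limma on the authors' normalized values they passed, at 1.30 and -1.33 for miR-124-3p and 1.05 and -1.09 for miR-124-5p (adjusted p from 0.00227 to 0.0104); the cause was not tested. For transgenic Vorinostat over wild type vehicle the direction turned. miR-124-3p gave 0.0198 in limma voom, 0.0475 with the replicate block over all libraries and 0.0522 within lane L001, and miR-124-5p gave -0.17 within L002 and -0.0385 on the authors' values. The arm ratio turned to 0.21 within L001 for transgenic Vorinostat over transgenic vehicle and to -0.00628 within L002 for transgenic Vorinostat over wild type vehicle; the cause of these turns was not tested.

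Leaving out each library in turn, miR-124-3p ran from 0.07 to 0.38 for transgenic vehicle over wild type vehicle, from -0.46 to -0.22 for transgenic Vorinostat over transgenic vehicle and from -0.27 to 0.0137 for transgenic Vorinostat over wild type vehicle. miR-124-5p ran from 0.34 to 0.60, from -0.47 to -0.25 and from -0.00564 to 0.25. The arm ratio ran from 0.22 to 0.39, from -0.14 to 0.00124 and from 0.16 to 0.32. Without wild type vehicle replicate 1 the first comparison gave 0.07 and 0.34 for the 3p and 5p arms, less than with it, and the last gave -0.27 and -0.00564, where the 5p arm turned.

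With the replicate block over all libraries miR-124-3p gave 0.25, -0.20 and 0.05 and miR-124-5p 0.59, -0.36 and 0.24 in the 3 comparisons, and 0 miRNAs passed. That block also joins wild type libraries by number, which were not taken to pair, so nothing is concluded from it. Over the 14 libraries of the 7 transgenic pairs, 5 miRNAs passed with the block and 0 without a pair term. The block changed no call of miR-124. Of the alternatives, 344 were unchanged, 10 turned, 4 newly passed and 1 count moved. The 344 include counts of passing miRNAs that stayed at 0, beside results that kept direction and call. Many are refits of the same data with 1 library left out, so they are not independent. Depth limited miR-124-5p in wild type vehicle replicate 1.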
